A study of Mus musculus with 20 samples.

Results

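The features described here are the counted features of a mouse liver RNA sequencing study whose intervals touched no exon of any mouse gene. They were found by reading each feature's deposited coordinates as positions on the mouse genome build mm10 and comparing them with the exons of the GENCODE M21 annotation. Of 58395 features in each count table, 47209 overlapped no mouse exon, and 10188 of those had at least 1 count. The 2287 with 20 or more counts over the 20 libraries are called members below. They were chosen by their summed counts over all libraries, so their presence and total are a description and not a finding: 131 members lay just inside the threshold, with 20 or 21 counts, and 128 features with 18 or 19 counts lay just outside it. Members were sorted into 1409 intronic features, whose intervals all lay inside the body of a mouse gene, 416 intergenic features, which touched no gene body, and 462 mixed features, which did neither.

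Livers came from 20 individual mice in 4 groups of 5. Control mice without antibiotics (ABX) were mice 6 to 10 and control mice with ABX were mice 1 to 5. Mice given anti-CD40, an antibody to the immune receptor CD40, were mice 16 to 20 without ABX and mice 11 to 15 with ABX. Strain, age, sex, the antibiotics, the dose and timing of the antibody and whether it activates or blocks CD40 are not stated in the sources used.

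Most reads of a messenger RNA library fall on exons, because introns are removed as a transcript matures. Counts inside introns are commonly read as signal from unspliced transcripts, from retained introns or from exons that an annotation lacks, and counts just past a gene as signal from transcripts that run beyond the annotated end. CD40 is a receptor of the tumour necrosis factor receptor family on antigen-presenting cells, and liver is built mainly of hepatocytes, which secrete plasma proteins and express cytochrome P450 enzymes, with macrophages, sinusoidal endothelial cells and lymphocytes among them.

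A few members overlap the window around the annotated start of a RefSeq transcript, and the window sequences show a part of what was counted. Each window below holds the 250 bases before and the 50 bases after a start, from RefSeq on GRCm38.p6, 5′ to 3′ on the strand of that gene, and capitals mark the bases inside the counted interval. Of 76 members that overlapped such a window, 5 had 1 interval and 100 or more counts. Shown are the 4 of these with the most counted bases in their windows, and the member with the most counts among the 76, which lies at Entpd8. Counts are per member and not per base, so they do not say where in an interval the reads fell. Gm41569 (chr17:32410611-32410910, plus strand) has 136 counted bases, at the end of a 588 bp interval in an intron of CT485616.1. Gm15348 (chr8:12719078-12719377, minus strand) holds a whole 59 bp interval, 5 bp outside the annotated gene. Gm31082 (chr17:34004099-34004398, minus strand) lies wholly in a 5984 bp interval 442 bp upstream of H2-K1, a class I antigen-presenting molecule. Entpd8 (chr2:25080073-25080372, plus strand) is a membrane enzyme that removes phosphates from nucleotides outside the cell, and 207 bases of its window lie in 1 of the 3 intervals of its member. Gm36180 (chr3:129847153-129847452, minus strand) lies wholly in a 910 bp interval in an intron of Cfi, the gene of complement factor I.
Gm41569: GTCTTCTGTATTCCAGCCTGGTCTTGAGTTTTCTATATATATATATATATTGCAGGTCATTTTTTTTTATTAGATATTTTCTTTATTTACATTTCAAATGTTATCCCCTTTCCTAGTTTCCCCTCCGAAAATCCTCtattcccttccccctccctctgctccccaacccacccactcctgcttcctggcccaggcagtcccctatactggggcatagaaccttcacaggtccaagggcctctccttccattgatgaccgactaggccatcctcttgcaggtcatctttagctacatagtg
Gm15348: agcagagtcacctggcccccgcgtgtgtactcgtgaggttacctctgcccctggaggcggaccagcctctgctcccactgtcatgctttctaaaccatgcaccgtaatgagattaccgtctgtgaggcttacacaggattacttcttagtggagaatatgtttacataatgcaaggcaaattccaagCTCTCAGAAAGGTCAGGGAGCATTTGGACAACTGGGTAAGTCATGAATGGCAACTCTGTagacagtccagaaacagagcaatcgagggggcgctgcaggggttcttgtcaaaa
Gm31082: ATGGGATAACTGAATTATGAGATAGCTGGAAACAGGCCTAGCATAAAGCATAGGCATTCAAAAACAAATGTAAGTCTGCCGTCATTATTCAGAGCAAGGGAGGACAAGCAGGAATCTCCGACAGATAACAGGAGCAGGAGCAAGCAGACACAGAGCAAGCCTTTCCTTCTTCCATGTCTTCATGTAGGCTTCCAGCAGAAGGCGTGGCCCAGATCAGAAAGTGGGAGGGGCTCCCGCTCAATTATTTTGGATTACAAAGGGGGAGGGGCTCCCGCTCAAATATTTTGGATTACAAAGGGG
Entpd8: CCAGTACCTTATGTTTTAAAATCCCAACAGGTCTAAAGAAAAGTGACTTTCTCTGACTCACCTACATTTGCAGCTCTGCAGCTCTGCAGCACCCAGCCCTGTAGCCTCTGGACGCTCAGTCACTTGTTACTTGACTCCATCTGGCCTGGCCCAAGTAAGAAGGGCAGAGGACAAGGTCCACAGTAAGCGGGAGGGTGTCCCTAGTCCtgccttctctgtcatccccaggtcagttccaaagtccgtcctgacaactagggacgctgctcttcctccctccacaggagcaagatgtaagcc
Gm36180: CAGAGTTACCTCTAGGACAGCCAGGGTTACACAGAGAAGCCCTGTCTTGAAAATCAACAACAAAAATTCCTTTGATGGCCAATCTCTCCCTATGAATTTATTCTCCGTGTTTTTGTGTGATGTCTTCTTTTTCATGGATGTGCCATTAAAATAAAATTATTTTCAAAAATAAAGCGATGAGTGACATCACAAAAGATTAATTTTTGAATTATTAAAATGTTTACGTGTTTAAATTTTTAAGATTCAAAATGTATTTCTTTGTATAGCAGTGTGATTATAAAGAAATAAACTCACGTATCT

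The member whose interval ends before the start of Gm41569 read 0.970, 1.59, 1.54, 1.80 and 1.16 CPM (the level per library total, scaled by TMM factors) in control mice without ABX. It read 5.19, 2.64, 3.47, 3.37 and 4.06 CPM in anti-CD40 mice without ABX. With ABX it read 0.970, 1.103, 0.935, 0.6996 and 0.920 CPM in control mice and 4.27, 3.81, 3.42, 2.90 and 2.66 CPM in anti-CD40 mice. The groups did not overlap in either setting, and the log2 fold change was 1.39 ± 0.29 (SE; adjusted p = 0.00014) without ABX and 1.85 ± 0.32 (adjusted p = 1.04e-05) with ABX. For the member just before the start of Gm15348 the mean rose from 0.562 ± 0.513 CPM to 2.13 ± 0.802 CPM without ABX (SD, n = 5, log2 fold change 1.96 ± 0.47 (SE), adjusted p = 0.000795). That call ended with plate column in the fit (1.58, adjusted p = 0.282). With ABX it rose from 0.258 ± 0.214 CPM to 4.28 ± 0.65 CPM (3.99 ± 0.52, adjusted p = 5.75e-08). All 5 anti-CD40 mice with ABX, at 3.74 to 5.34 CPM, lay above all other mice, whose highest value was 3.21 CPM.

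The Entpd8 member fell in anti-CD40 mice without ABX, from 22.3 ± 2.85 CPM to 10.7 ± 3.96 CPM, by 1.06 ± 0.20 on the log2 scale (adjusted p = 0.000108). With plate column in the fit this was -0.81 (adjusted p = 0.202). With ABX the means were 22.5 ± 3.64 CPM and 17.9 ± 3.07 CPM and the change was not called (-0.32 ± 0.19, adjusted p = 0.214). The interval upstream of H2-K1 read 1.38 ± 0.357 CPM in control mice and 2.41 ± 1.28 CPM in anti-CD40 mice without ABX, which was not called (0.79 ± 0.41, adjusted p = 0.122). With ABX the values were 1.36 ± 0.847 CPM and 3.06 ± 1.56 CPM, with overlapping groups and a call (1.17 ± 0.41, adjusted p = 0.0228) that was lost with plate column as a term (1.41, adjusted p = 0.215) and without any 1 of mice 13, 14, 1, 3 or 5 (0.89 to 1.08, adjusted p = 0.0534 to 0.112). The interval at Gm36180 was not called, at 1.13 ± 0.209 CPM and 1.06 ± 0.367 CPM without ABX (-0.09 ± 0.46, adjusted p = 0.901) and 0.906 ± 0.6004 CPM and 0.559 ± 0.392 CPM with ABX (-0.70 ± 0.53, adjusted p = 0.33).

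Gm12250, Igtp and Gbp2 encode interferon-inducible GTPases that act against microbes inside cells. The deepest members beside such genes, described below, lie at these 3, so the windows of their starts are shown as well. Here capitals mark GAAANNGAAA or its reverse complement TTTCNNTTTC, the 2 strands of the repeat that interferon regulatory factors bind. The window of Gm12250 is chr11:58183593-58183892, that of Igtp chr11:58199306-58199605 and that of Gbp2 chr3:142620413-142620712, all on the plus strand.
Gm12250: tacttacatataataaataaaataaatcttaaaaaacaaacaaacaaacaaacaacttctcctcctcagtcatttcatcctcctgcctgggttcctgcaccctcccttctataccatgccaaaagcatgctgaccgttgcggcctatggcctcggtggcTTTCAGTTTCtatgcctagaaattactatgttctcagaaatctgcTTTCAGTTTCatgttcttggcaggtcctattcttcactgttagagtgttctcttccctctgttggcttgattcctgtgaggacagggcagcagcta
Igtp: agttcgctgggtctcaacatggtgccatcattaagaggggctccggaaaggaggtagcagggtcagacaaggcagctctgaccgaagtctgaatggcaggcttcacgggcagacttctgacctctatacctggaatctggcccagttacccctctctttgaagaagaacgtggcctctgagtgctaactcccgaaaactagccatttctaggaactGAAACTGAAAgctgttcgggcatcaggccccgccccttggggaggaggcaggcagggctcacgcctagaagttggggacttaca
Gbp2: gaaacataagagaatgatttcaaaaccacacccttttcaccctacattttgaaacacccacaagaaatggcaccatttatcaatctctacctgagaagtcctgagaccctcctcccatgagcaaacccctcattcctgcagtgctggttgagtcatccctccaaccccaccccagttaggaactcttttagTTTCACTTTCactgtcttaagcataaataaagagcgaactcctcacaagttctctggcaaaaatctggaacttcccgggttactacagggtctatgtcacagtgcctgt

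The repeat occurred 2 times in the window of Gm12250 and 1 time in each of the other two. It occurred in 1131 of 32851 such windows (3.44%). Of 12 genes of the interferon list that were looked up because a member lay in or beside them, 7 had a window and 4 of these held the repeat (Gbp2, Igtp, Irgm2 and Ifit1). A match of letters is a description and not a site of binding.

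The 20 libraries held 5053014 to 7618736 counts, and mitochondrial features took 20.9% to 35.1% of them. The library of mouse 17 (anti-CD40 without ABX) stood apart, with a TMM factor of 1.35 and 2115 members detected, against 1676 to 1985 in the other libraries. Mice were individual, so a p-value measures the spread between mice. Plate column was the only batch label. Column 3 held control mice 1 to 8, and column 4 control mice 9 and 10 with anti-CD40 mice 11 to 16. Column 5 held anti-CD40 mice 17 to 20. Without ABX, column and treatment can thus be told apart only through column 4. With ABX they cannot be told apart, as all control mice were in column 3 and all anti-CD40 mice in column 4. There a fit with plate column takes the step between these columns from control mice without ABX, and assumes it was the same with ABX. Calls with ABX kept or lost with this term rest on that assumption. Column 5 held no other group, so with the term the level of anti-CD40 mice without ABX rests on mouse 16. Calls kept or lost with the term in comparisons of that group, ABX against no ABX included, rest on this 1 mouse. Of 38 marker genes over 9 cell types, 14 could be read from exon features. Alb, the hepatocyte marker with the highest level, averaged 159485 CPM in control mice without ABX and 60270 CPM in anti-CD40 mice without ABX, and 206458 CPM and 81960 CPM with ABX. The summed T and NK cell markers (Cd8a and Cd8b1 of 5) ranged from 0.416 to 1.20 CPM in control mice and from 2.81 to 6.78 CPM in anti-CD40 mice without ABX. The summed endothelial markers (3 of 5) ranged from 96.3 to 149 CPM and from 25.3 to 100.2 CPM in the same groups. Within a marker list the genes differed in direction: Stab2 averaged 46.04 CPM in control and 4.45 CPM in anti-CD40 mice without ABX, but Stab1 11.5 and 12.5 CPM, and of the macrophage markers Lyz2 averaged 123 and 606 CPM and Adgre1 21.9 and 3.81 CPM. The cholangiocyte marker Sox9 averaged 2.22 and 18.2 CPM, and neutrophil and erythroid markers could not be read. Whether these shifts in cell make-up had a part in any result below was not tested, and in bulk liver fewer cells of a type cannot be told apart from less RNA per cell.

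Members held 638214 of 123867788 counts, or 0.515%. Intergenic members held 0.238% of all counts, intronic members 0.168% and mixed members 0.109%. Counts were uneven between members: the first held 22.6% of member counts, the first 5 held 39.1% and the first 10 held 47.1%, while the median member had 53 counts. The median distance to the nearest exon was 915 bp, and 623 members, with 26.02% of member counts, lay within 300 bp of one. A member can be made of several intervals, and for all but 720 of them the deposited counts do not say which interval the reads fell on. RefSeq gene bodies covered 1982 members, including 153 of the 416 that were intergenic by GENCODE.

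Of the counts of single mice, the intronic share was 0.188%, 0.196%, 0.126%, 0.140% and 0.180% in the control group without ABX, and 0.174%, 0.251%, 0.1499%, 0.181% and 0.173% in anti-CD40 mice without ABX. These groups overlapped (0.166% ± 0.0308 and 0.186% ± 0.0384, SD, n = 5), and the anti-CD40 mean was 0.169% without mouse 17, the highest. With ABX the means were 0.1505% ± 0.00751 and 0.174% ± 0.0355, again with overlap. Intergenic shares ran from 0.199% to 0.243% in control mice without ABX (0.226% ± 0.0175) and 0.262% to 0.295% in anti-CD40 mice without ABX (0.278% ± 0.0153), with no overlap. With mitochondrial features left out of the totals these groups did overlap, at 0.235% to 0.292% and 0.284% to 0.329%. In plate column 4 alone, control mice 9 and 10 had 0.199% and 0.218% and anti-CD40 mouse 16 had 0.295%. With ABX the intergenic shares overlapped, at 0.222% ± 0.0238 in control mice and 0.231% ± 0.0158 in anti-CD40 mice.

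**Figure D1:**
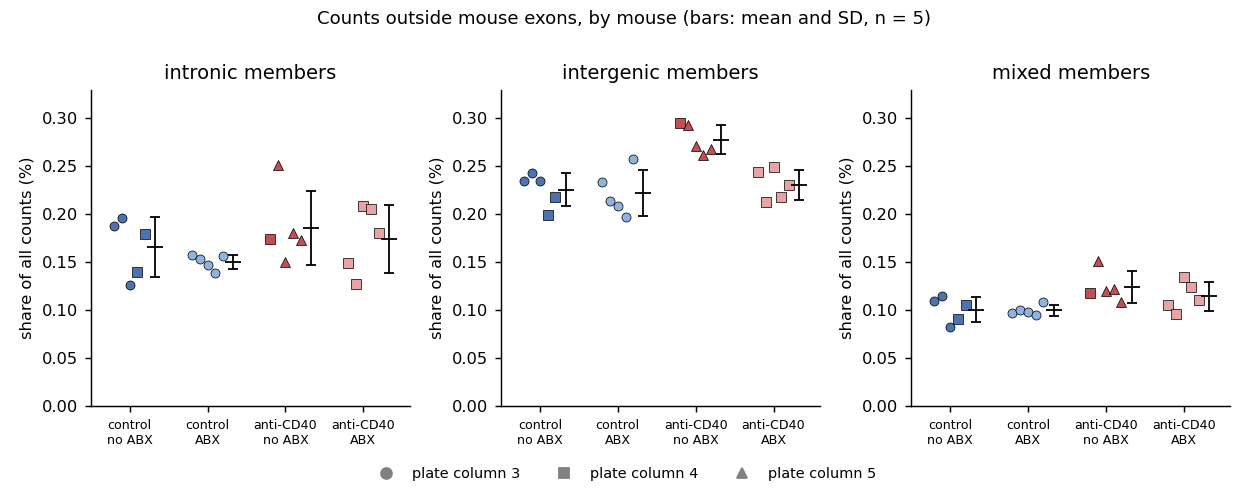
Share of all counts (percent) in intronic, intergenic and mixed members for each mouse, by group, with the group mean and SD (n = 5) as bars and the plate column as the marker shape. Intergenic shares of anti-CD40 mice without ABX lie between 0.262% and 0.295% of all counts, above all control mice without ABX (they overlap when mitochondrial features are left out of the totals), while intronic shares overlap between the groups.

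A single member held 144350 of the 294445 intergenic counts. It lies on chromosome 19 at 4061615 to 4062749, 2046 bp upstream of Gstp3, a glutathione transferase gene. It read 1335, 1488, 1594, 1222 and 1241 CPM in control mice without ABX and 1337, 995, 1165, 1141 and 1213 CPM in anti-CD40 mice without ABX, so these groups overlapped and the change was not called (log2 fold change -0.23 ± 0.10, adjusted p = 0.0605). With ABX it read 1261, 1240, 1216, 1195 and 1710 CPM in control mice and 860, 805, 842, 686 and 875 CPM in anti-CD40 mice. The groups with ABX did not overlap and the member fell (-0.70 ± 0.10, adjusted p = 4.26e-07), although the call was lost with plate column in the fit (-0.45, adjusted p = 0.0673). Without this member the mean intergenic share was 0.0954% in control and 0.146% in anti-CD40 mice without ABX, and 0.108% and 0.142% with ABX, with no overlap of mice (0.0881% to 0.108% against 0.138% to 0.159%, and 0.103% to 0.118% against 0.132% to 0.152%). Those shares are sums over chosen members and were not tested. A few deep members weigh in them. With ABX the feature downstream of Gm12250, described below, read 3.15 to 16.6 CPM in control and 244 to 375 CPM in anti-CD40 mice. The chromosome 8 interval described below read 0.92 to 3.72 CPM and 72.3 to 97.4 CPM. Of the 416 intergenic members, 77 were called higher with ABX and 49 lower (30.3% called, beside 35.2% of all features). The sums thus need not describe most intergenic members.

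Anti-CD40 against control without ABX changed 547 of 2287 members (23.9%), with 349 higher and 198 lower. Of all 8751 features tested, 40.9% were called (1916 higher and 1660 lower), and of the 6464 features over exons 46.9% (24.2% higher and 22.6% lower). A fit with plate column as a term called 169 members, and the fit without mouse 17 called 518 (311 higher and 207 lower). Shares over all features are not given for these or the other alternative fits below. Their counts thus do not set members apart from other features. Scaling by library totals alone gave 587 calls, of which 450 were higher and 137 lower (76.7% higher, against 63.8% with TMM factors), and it moved the median of all features from 0.07 to 0.32 on the log2 scale. By class, 266 of 1409 intronic members (18.9%), 154 of 416 intergenic members (37.0%) and 127 of 462 mixed members (27.5%) were called. Intergenic members within 5 kb downstream of a gene were called in 31.3% of 150 cases, those within 5 kb upstream in 38.1% of 97 and those farther away in 41.4% of 169.

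Most members are shallow, and the share called differed with depth. Among members with under 50 counts 13.5% were called, against 13.9% of exon features of the same depth. From 50 to under 100 counts the shares were 23.7% and 23.8%, from 100 to under 500 counts 33.8% and 36.6%, and at 500 counts or more 66.4% and 60.0%. At like depth, members were thus called at shares within 7 percentage points of exon features without ABX. With ABX the shares of members and exon features were 8.65% and 13.6%, 16.4% and 21.5%, 33.4% and 31.6%, and 65.7% and 51.6% over the same ranges of depth. Whether members and exon features differ in these shares was not tested.

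**Figure D2:**
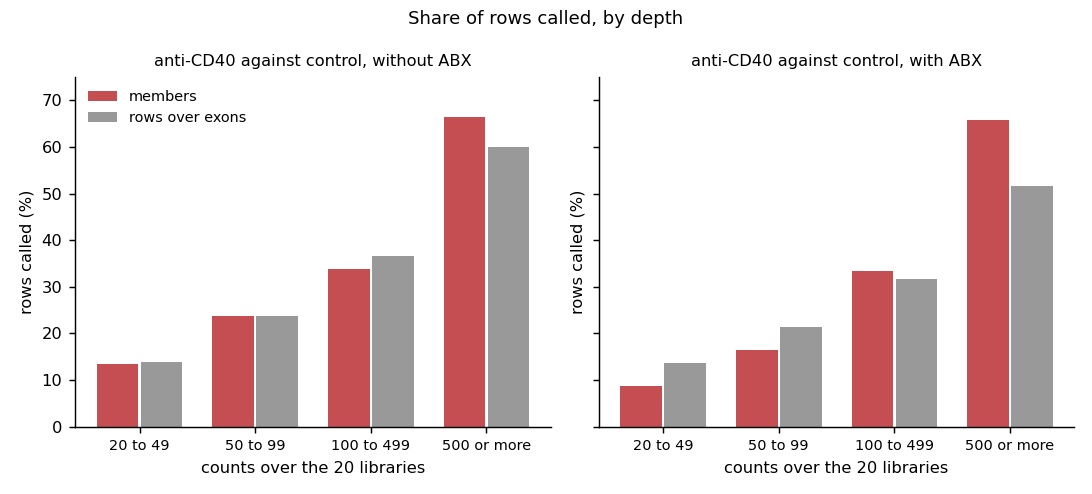
Percent of features called (edgeR adjusted p under 0.05) for members and for features over exons, by total counts over the 20 libraries, for anti-CD40 against control without ABX (left) and with ABX (right). Both kinds of feature are called more often at greater depth, from 13.5% of members under 50 counts to 66.4% at 500 or more without ABX.

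With ABX, anti-CD40 against control changed 454 members (19.9%), 243 higher and 211 lower, beside 35.2% of all features (1581 higher and 1499 lower) and 40.6% of exon features (20.7% higher and 19.9% lower). Library totals gave 485 calls with 340 higher and 145 lower (70.1% higher, against 53.5%) and moved the median of all features from 0.03 to 0.37, and the fit with plate column gave 150 calls. In all, 300 members were called in both settings, which is 54.8% of the calls without ABX and 66.1% of those with ABX, and 298 of these moved the same way (173 higher and 125 lower). The opposite pair, named because they are the only ones, were an interval set 23893 bp upstream of Gm30173 and an interval pair in Gfra1 described below. The settings do not share control mice. Matching counts over all features are not given, so this overlap does not set members apart from other features.

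Among the deeper members that rose were intervals beside interferon-inducible GTPase genes and one far from any gene. The 3774 bp feature that starts 58 bp downstream of Gm12250 (chromosome 11, 58189070 to 58194053) read 8.60, 5.55, 8.21, 10.4 and 6.46 CPM in control mice and 162, 134, 174, 150 and 156 CPM in anti-CD40 mice without ABX. With ABX it read 7.92, 16.6, 10.7, 3.15 and 13.2 CPM in control mice and 375, 298, 256, 244 and 277 CPM in anti-CD40 mice. Every anti-CD40 mouse lay far above every control mouse, and the log2 fold change was 4.30 ± 0.27 (edgeR, adjusted p = 5.64e-10) without ABX and 4.82 ± 0.27 (adjusted p = 1.35e-10) with ABX. Both calls held with plate column in the fit, at 4.26 and 4.64. RefSeq places this feature inside its own Gm12250 model.

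A 980 bp interval inside the bodies of Irgm2 and Igtp (chromosome 11, 58203202 to 58204181), 1485 bp from any exon, read 4.02, 1.75, 0.685, 3.45 and 1.82 CPM in control mice and 26.8, 29.9, 17.5, 36.1 and 19.4 CPM in anti-CD40 mice without ABX. With ABX it read 1.62, 1.84, 2.24, 1.22 and 4.601 CPM and 42.9, 23.4, 38.6, 48.8 and 38.5 CPM. It rose by 3.42 ± 0.35 (adjusted p = 2.79e-07) and 4.06 ± 0.36 (adjusted p = 4.45e-08), with no overlap of mice and both calls kept with plate column in the fit. The exon features of Irgm2 itself rose by 2.56 ± 0.20 and 3.43 ± 0.21.

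A 287 bp interval on chromosome 8 (33715784 to 33716070), 14464 bp from the nearest gene, 1700104B16Rik, showed a change as large. It read 1.25, 0.793, 5.13, 1.05 and 2.32 CPM in control mice and 87.3, 69.7, 89.4, 70.5 and 84.6 CPM in anti-CD40 mice without ABX. With ABX the values were 3.72, 1.29, 1.87, 2.45 and 0.92 CPM against 97.4, 83.3, 92.8, 91.2 and 72.3 CPM. The anti-CD40 mice formed a narrow group far above the controls in both settings, with log2 fold changes of 5.28 ± 0.31 (adjusted p = 1.19e-10) and 5.37 ± 0.31 (adjusted p = 1.28e-10), and no RefSeq gene body covers the interval.

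**Figure D3:**
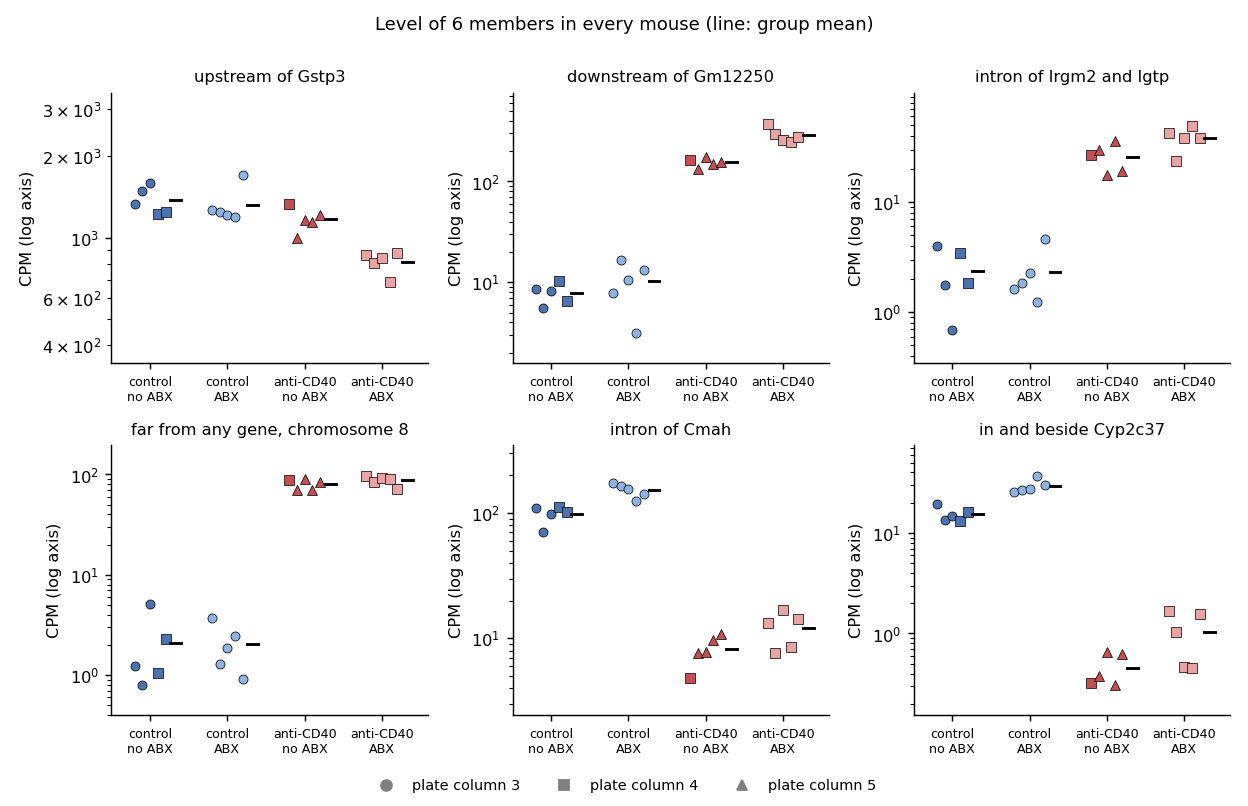
Level in CPM on a log axis of 6 members in every mouse, by group, with the group mean as a line and plate column as the marker shape. The members downstream of Gm12250, in Irgm2 and Igtp and on chromosome 8 are higher in all anti-CD40 mice than in all control mice, those in Cmah and Cyp2c37 are lower, and the member upstream of Gstp3 overlaps between groups without ABX.

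Some members had no counts at all in control livers. Such a feature reached 20 counts only through anti-CD40 mice, so the filter could not admit it with a change the other way. The folds of these members are therefore a description of features chosen in part by their counts in anti-CD40 mice. A 965 bp interval 1815 bp upstream of Serping1, the gene of the complement C1 inhibitor, had 0 counts in all 10 control mice and read 8.11, 8.29, 11.9, 14.4 and 14.2 CPM in anti-CD40 mice without ABX and 9.09, 8.66, 18.1, 7.78 and 11.6 CPM with ABX. Against a floor of 3 counts over the control group it was at least 120-fold higher without ABX and at least 104-fold higher with ABX, with no overlap. A feature in and beside Gm48505 on chromosome 10 likewise had 0 counts in all control mice and was at least 103-fold higher without ABX (9.53 ± 3.0 CPM) and at least 42.4-fold higher with ABX (4.43 ± 2.2 CPM). Beside them stood a feature at Gm48199 on chromosome 13, at 0 in control mice without ABX and at 3.83 to 27.1 CPM in anti-CD40 mice (at least 131-fold), and a feature across Pkia and Il7, at 1.41 to 3.83 CPM and at least 27.7-fold. Il7 encodes a cytokine that sustains lymphocytes.

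An intronic member of Slfn4, a Schlafen gene of myeloid cells, had 2 counts in control mice and 210 in anti-CD40 mice without ABX, a ratio of 102 with a 95% exact interval of 27.8 to 845 that covers counting error only. With ABX control mice had 0 counts and anti-CD40 mice were at least 16.6-fold higher. A 5094 bp interval 6406 bp downstream of Gm14319 read 5.92 ± 1.9 CPM in anti-CD40 mice without ABX. In the control mice it was at 0 except for mouse 8, at 1.37 CPM (log2 fold change 4.45 ± 0.67, adjusted p = 3.44e-05). With ABX it was at least 40.2-fold higher. With plate column in the fit, the calls with ABX at Serping1, Gm48505, Gm48199 and Pkia and Il7 were lost (adjusted p = 1 each), with fitted log2 fold changes of 9.10, 7.79, 3.93 and 5.07, which rest on the prior count where control mice are at 0. Their calls without ABX were kept. As the control mice there were at 0 and the filter admitted these features through other mice, this too is a description and not support.

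The deepest intronic member that fell was an 862 bp interval in an intron of Cmah, the enzyme that hydroxylates sialic acid, 723 bp from the nearest exon (chromosome 13, 24328211 to 24329072). It read 108, 70.6, 97.4, 112 and 101 CPM in control mice and 4.87, 7.66, 7.76, 9.79 and 10.8 CPM in anti-CD40 mice without ABX. With ABX the values were 172, 164, 154, 125 and 142 CPM against 13.2, 7.62, 16.96, 8.54 and 14.2 CPM. No mice overlapped, and it fell by 3.58 ± 0.21 (adjusted p = 6.54e-11) and by 3.64 ± 0.21 (adjusted p = 3.89e-11) on the log2 scale.

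Members of the cytochrome P450 family 2c, enzymes that oxidise drugs and lipids, fell in both settings. The feature in and beside Cyp2c37 read 19.4, 13.3, 14.9, 13.2 and 16.1 CPM in control mice and 0.324, 0.377, 0.661, 0.306 and 0.625 CPM in anti-CD40 mice without ABX. It fell by 5.03 ± 0.26 (adjusted p = 3.19e-18) without ABX and by 4.82 ± 0.23 (adjusted p = 1.91e-19) with ABX, with no overlap. The feature in and beside Cyp2c54 had 154 counts in control mice and 3 in anti-CD40 mice without ABX, a ratio of 53.0 (95% exact interval 17.8 to 260), and the intronic feature of Cyp2c29 was at 0 in anti-CD40 mice without ABX, at least 16.5-fold lower. The feature 1366 bp downstream of Cyp2c67 fell from 130 ± 32 CPM to 49.8 ± 9.8 CPM without ABX (-1.38 ± 0.17, adjusted p = 2.18e-06) and from 233 ± 23 CPM to 56.8 ± 11 CPM with ABX (-2.04 ± 0.18, adjusted p = 1.3e-08). Reads of these closely related genes may be shared between copies. The feature of Cyp2c68 had 44 and 2 counts (ratio 22.7, 5.93 to 194) without ABX, where the call was lost with 9 of 10 mice left out in turn (mice 6, 8, 9, 10 and 16 to 20; log2 fold change -4.63 to -3.22, adjusted p = 0.0511 to 0.148) and with plate column in the fit (-3.69, adjusted p = 0.425) or library totals (-3.93, adjusted p = 0.0627). With ABX it had 101 and 3 counts (ratio 36.6, 12.2 to 180), a call lost without mouse 1 (-2.48, adjusted p = 0.0531), which read 14.1 CPM against at most 1.29 CPM in the other control mice with ABX.

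Other members named for the size of their fall lay at unrelated genes. Features at or near 0 in anti-CD40 mice passed the count filter mainly through control mice, so their folds are likewise a description. A 554 bp interval that overlaps the bodies of Zfp697 and of Hsd3b5, a steroid dehydrogenase gene of liver, was at 0 in all anti-CD40 mice without ABX, at least 65.4-fold lower. With ABX it had 139 counts in control mice and 1 in anti-CD40 mice (ratio 151, 26.7 to 6005). An intronic feature of Kcnb2, a voltage-gated potassium channel gene, had 83 counts in control mice and 1 in anti-CD40 mice without ABX (ratio 85.8, 14.97 to 3428) and 76 and 1 with ABX (ratio 82.5, 14.4 to 3302). A feature in Rapgef4, a cyclic AMP-regulated exchange factor, was at 0 in anti-CD40 mice without ABX, at least 27.9-fold lower (fitted log2 fold change -7.14, adjusted p = 0.0814 with plate column in the fit, and -6.97, adjusted p = 0.00016 without it). With ABX it fell from 7.77 ± 2.2 CPM to 0.453 ± 0.57 CPM (-4.03 ± 0.63, adjusted p = 6.95e-05).

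Members in or within 5 kb of the genes of 6 lists numbered 28 in all. On the list of 49 interferon and antigen-presentation genes, 12 members lay in or near 10 genes. Without ABX 5 rose, 2 fell and 5 were not called, with a median log2 fold change of 2.35 (1.53 with a gene at 0 set to its bound), against 0.07 over all features, of which 40.9% were called. With ABX 6 rose, 2 fell and 4 were not called, with a median of 1.97 against 0.03, and 35.2% of all features called. The members that fell were 1 of the Rtp4 members and the 22 intervals in and around Gbp2, Kyat3 and Gbp2b.

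The Gbp2 feature is a case of mixed content. It read 259, 257, 194, 238 and 230 CPM in control mice and 115, 80.3, 122, 123 and 87.0 CPM in anti-CD40 mice without ABX, and 280, 302, 299, 315 and 329 CPM against 171, 154, 174, 148 and 137 CPM with ABX. The groups did not overlap and it fell by 1.16 ± 0.10 (adjusted p = 1.13e-11) and 0.96 ± 0.10 (adjusted p = 1.01e-09). Kyat3 encodes a kynurenine aminotransferase, and since the feature spans several genes, the deposited counts do not say which of them the reads came from.

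On the list of 33 drug and xenobiotic metabolism genes, 7 members lay in or near 7 genes. Without ABX 6 fell and 1 was not called, with a median of -3.25 (0.07 over all features, 40.9% called), and with ABX 5 fell and 2 were not called, with a median of -1.68 (0.03 over all features, 35.2% called). An intron of Cyp3a25, a P450 enzyme, read 54.3, 64.6, 26.7, 36.6 and 38.4 CPM in control mice and 4.70, 7.28, 3.63, 5.36 and 6.71 CPM in anti-CD40 mice without ABX, and fell by 2.98 ± 0.46 (adjusted p = 4.42e-05). With ABX it read 3.23, 29.6, 27.1, 27.99 and 27.2 CPM against 3.98 to 13.9 CPM. There mouse 1 lay below the anti-CD40 range, and the change was -1.60 ± 0.46 (adjusted p = 0.0104). Both calls were lost with plate column in the fit (-2.99, adjusted p = 0.0612, and -1.23, adjusted p = 0.327). An intron of Cyp2d9 fell by 1.45 ± 0.29 (adjusted p = 0.000116) and 1.68 ± 0.31 (adjusted p = 5.25e-05), also lost with the column term (-1.77, adjusted p = 0.052, and -1.38, adjusted p = 0.0562). The member at Ugt2b5, a glucuronidation gene, was not called (-0.99 ± 0.80 and -1.60 ± 0.77).

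On the list of 36 hepatocyte genes, 5 members lay in or near 5 genes: 1 fell and 4 were not called without ABX (median -0.30), and 3 fell and 2 were not called with ABX (median -0.92). Over all features 40.9% and 35.2% were called, with medians of 0.07 and 0.03. The feature in and beside Cps1, the first enzyme of the urea cycle, fell from 5.29 ± 2.7 CPM to 1.35 ± 0.38 CPM (-1.97 ± 0.32, adjusted p = 4.28e-06) and from 12.04 ± 3.3 CPM to 3.05 ± 0.48 CPM (-1.97 ± 0.28, adjusted p = 3.07e-07), and its exon features fell by 2.31 ± 0.10 and 1.84 ± 0.09. The member near Apoa2, a lipoprotein gene, fell with ABX (-3.26 ± 0.56, adjusted p = 1.21e-05) and was not called without ABX (-0.65 ± 0.56). Of the others, the feature at Apoh was called with ABX (-0.92 ± 0.25, adjusted p = 0.00314, lost with plate column at -0.67 and adjusted p = 0.349 and at adjusted p = 0.103 with library totals), and those at Foxa3 and downstream of Apob were not called. On the list of 30 acute phase genes there were 3 members, none called without ABX (median 0.14) and 1 higher with ABX (median 0.05), an interval in Crp with 31 counts. With ABX this interval had 0 counts in control mice and 13 in anti-CD40 mice, but control mice without ABX had 14. Its call was lost with plate column in the fit (edgeR log2 fold change 3.84, adjusted p = 0.114). On the list of 20 CD40 and NF-kB genes there was 1 member, in Bcl3, a nuclear partner of NF-kB, which rose from 2.98 ± 1.0 CPM to 9.33 ± 2.8 CPM (1.63 ± 0.26, adjusted p = 2.96e-06) and from 2.41 ± 1.1 CPM to 10.6 ± 2.1 CPM (2.12 ± 0.27, adjusted p = 5.4e-08). No member lay in or near the 14 nuclear noncoding RNA genes.

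Other deep members moved little or differed between settings. A feature at Gpc4, a glypican gene, rose from 113 ± 3.8 CPM to 177 ± 29 CPM without ABX (0.64 ± 0.09, adjusted p = 5.92e-07, lost with plate column at 0.40 and adjusted p = 0.122) and from 125 ± 13 CPM to 173 ± 12 CPM with ABX (0.47 ± 0.09, adjusted p = 0.000115). Intervals in the noncoding RNA gene D130009I18Rik were at 159 ± 31 CPM and 182 ± 40 CPM without ABX, which was not called (0.19 ± 0.20), and at 141 ± 36 CPM and 249 ± 66 CPM with ABX (0.82 ± 0.20, adjusted p = 0.00369, lost with plate column at 0.50 and adjusted p = 0.412). A pair of intervals in the mitochondrial control region beside mt-Tp, with 39644 and 9494 counts, was called in no comparison.

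ABX against no ABX changed few members. In control mice 29 members were called (1.27%), 19 higher and 10 lower, beside 3.18% of all features (152 higher and 126 lower) and 3.85% of exon features (2.06% higher and 1.79% lower), and 11 with plate column in the fit. Library totals gave 21 calls, 10 higher and 11 lower (47.6% higher, against 65.5%), and moved the median of all features from 0.00 to -0.13. The call count ran from 12 (without mouse 4 or without mouse 10) to 31 with 1 mouse left out, and was 17 without mouse 2, 16 without mouse 5 and 19 without mouse 9. In anti-CD40 mice 67 members were called (2.93%), 21 higher and 46 lower, beside 8.20% of all features (412 higher and 306 lower) and 10.1% of exon features (6.05% higher and 4.02% lower), but 2 with plate column in the fit. The count was 55 without mouse 17, 35 without mouse 14, 43 without mouse 15, 43 without mouse 18 and at most 63 with any 1 mouse left out.

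In control mice the feature of Cyp2c37 rose with ABX from 15.4 ± 2.5 CPM to 29.4 ± 4.6 CPM, at 25.7 to 37.1 CPM in the 5 mice, above all control mice without ABX (0.93 ± 0.16, adjusted p = 0.000633). The feature downstream of Cyp2c67 rose by 0.85 ± 0.17 (adjusted p = 0.00804) and that of Cps1 by 1.18 ± 0.26 (adjusted p = 0.00624). All 3 of these calls held with plate column in the fit. A feature in Lima1, an actin-binding protein gene, fell from 2.46 ± 1.0 CPM to 0.582 ± 0.35 CPM (-2.07 ± 0.47, adjusted p = 0.009), and the feature across Cd247, the CD3 zeta chain gene, and Creg1 fell from 3.66 ± 1.3 CPM to 0.898 ± 0.64 CPM (-2.02 ± 0.35, adjusted p = 0.000637). Calls at Apoa2, AC116871.4 and Atxn1 and at Gbp2 did not survive leaving out any 1 of 7 of the 10 mice (mice 2 to 6, 8 and 10 at Apoa2; 1, 4 and 6 to 10 at AC116871.4; 1 to 5, 8 and 10 at Atxn1; 2 to 5 and 8 to 10 at Gbp2), with log2 fold changes of 1.46 to 1.83, 2.11 to 3.11, -2.40 to -1.75 and 0.31 to 0.38.

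In anti-CD40 mice the feature downstream of Rdh7, a retinol dehydrogenase gene, was higher with ABX, at 6.68, 5.20, 2.49, 4.42 and 3.76 CPM, than without, at 0.811, 1.51, 0.661, 1.99 and 1.09 CPM (1.84 ± 0.33, adjusted p = 0.000698), with no overlap. The feature downstream of Gm12250 was also higher (0.90 ± 0.22, adjusted p = 0.017, lost at adjusted p = 0.0504 without mouse 11, with 0.79). So was one that overlaps the bodies of Zfp697 and Hsd3b2 (1.87 ± 0.51, adjusted p = 0.0163, and 1.49 at adjusted p = 0.108 without mouse 14). The member upstream of Gstp3 was lower (-0.52 ± 0.10, adjusted p = 0.000662), as were the intron of Slfn4 (-1.82 ± 0.43, adjusted p = 0.00771) and a feature in Klf13, a zinc-finger factor gene (3.15 ± 1.0 CPM without ABX and 0.595 ± 0.48 CPM with ABX; -2.33 ± 0.52, adjusted p = 0.00275). With plate column in the fit, mouse 16 alone sets the level without ABX here. The Gstp3 call was then kept (-0.72) and the other 5 were lost. Their changes were 2.43 for Rdh7, 0.84 for Gm12250, 1.62 for the Hsd3b2 interval, -1.01 for Slfn4 and -1.95 for Klf13.

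The anti-CD40 change itself differed between the ABX settings for 19 members (0.831%), 5 where the signed log2 change was higher with ABX than without and 14 where it was lower, beside 3.25% of all features (172 higher and 112 lower) and 4.10% of exon features (2.58% higher and 1.52% lower). None was called with plate column in the fit (edgeR; the main fit gave 216 members at an unadjusted p under 0.05 and DESeq2 called 22), and the count was 12 without mouse 11, without mouse 14 or without mouse 10 and 25 without mouse 17. The member downstream of Rdh7 fell in both settings, by 4.27 ± 0.28 without ABX and 2.59 ± 0.23 with ABX (difference 1.68 ± 0.39, adjusted p = 0.0143, and 2.39 at adjusted p = 0.216 with plate column). The neighbouring intron of Rdh16f2, of the same enzyme family, fell by 4.05 ± 0.30 and 2.54 ± 0.26 (difference 1.51 ± 0.43, adjusted p = 0.0435). Features in C330002G04Rik and downstream of Ide, the insulin-degrading enzyme, fell more with ABX than without (-2.58 ± 0.22 against -0.85 ± 0.19, and -2.59 ± 0.28 against -0.69 ± 0.26). These 3 lie outside the rule for named members and were chosen after their values were seen.

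A member in Gfra1, the gene of a receptor for the neurotrophic factor GDNF, moved in opposite directions with and without ABX. The pair of intervals at 58357999 to 58359603 on chromosome 19, 32970 bp from any exon, read 1.11, 1.59, 0.513, 0.1501 and 0.331 CPM in control mice without ABX and 4.22, 1.25, 3.14, 3.37 and 4.22 CPM in anti-CD40 mice without ABX. With ABX the order was turned, at 3.56, 2.02, 2.62, 2.97 and 3.87 CPM in control mice and 0.185, 0.346, 2.33, 0.152 and 0.782 CPM in anti-CD40 mice. The change was 2.08 ± 0.50 without ABX (adjusted p = 0.00108) and -1.93 ± 0.51 with ABX (adjusted p = 0.0031), a difference of -4.00 ± 0.71 (adjusted p = 0.00149). In both settings 1 anti-CD40 mouse lay inside the control range (mouse 17 and mouse 13). With plate column in the fit the change with ABX became 0.17 (adjusted p = 0.949) and the difference -3.87 (adjusted p = 0.0738). A feature near Gm23315 differed by -2.79 ± 0.81 (adjusted p = 0.0454), with a change of 2.30 ± 0.55 without ABX; with plate column in the fit these became 0.03 and -0.27, and the difference was lost without any 1 of 13 mice (-2.91 to -2.24; all but mice 12, 13, 16, 17, 1, 4 and 8) and with library totals (-2.68, adjusted p = 0.0628). The feature of Lima1 differed by 2.92 ± 0.62 (adjusted p = 0.0047) and that of Cd247 and Creg1 by 1.99 ± 0.42 (adjusted p = 0.00393). These were 2.95 and 1.17 with the column term, and neither was called (adjusted p = 0.206 and 0.447).

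To set introns beside the exons of the same gene, the ratio of an intronic member to the summed exon features of its host was tested for the 152 of 672 such pairs with 100 or more counts on both sides. Exon features of a gene, here and throughout, are those that overlap the exons of that gene only, by at least 50 bp. Their intervals follow the deposited coordinates, so they can miss some exon bases and cover bases outside exons. The exons of a host below are read through these features. A ratio within a library needs no scaling between libraries. Per covered base the median intronic member stood at 0.828% of its host exons, and 150 of 152 lay below them. Across the 152 pairs, the log2 fold changes of intron and host had r = 0.7101 (rho = 0.619) without ABX and r = 0.680 (rho = 0.557) with ABX, as a description over pairs that share libraries. Without ABX both were called in 39 pairs, of which 35 moved the same way and 4 the opposite way. With ABX both were called in 35 pairs, 32 the same and 3 opposite. Matching counts for exon pairs are not given.

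**Figure D4:**
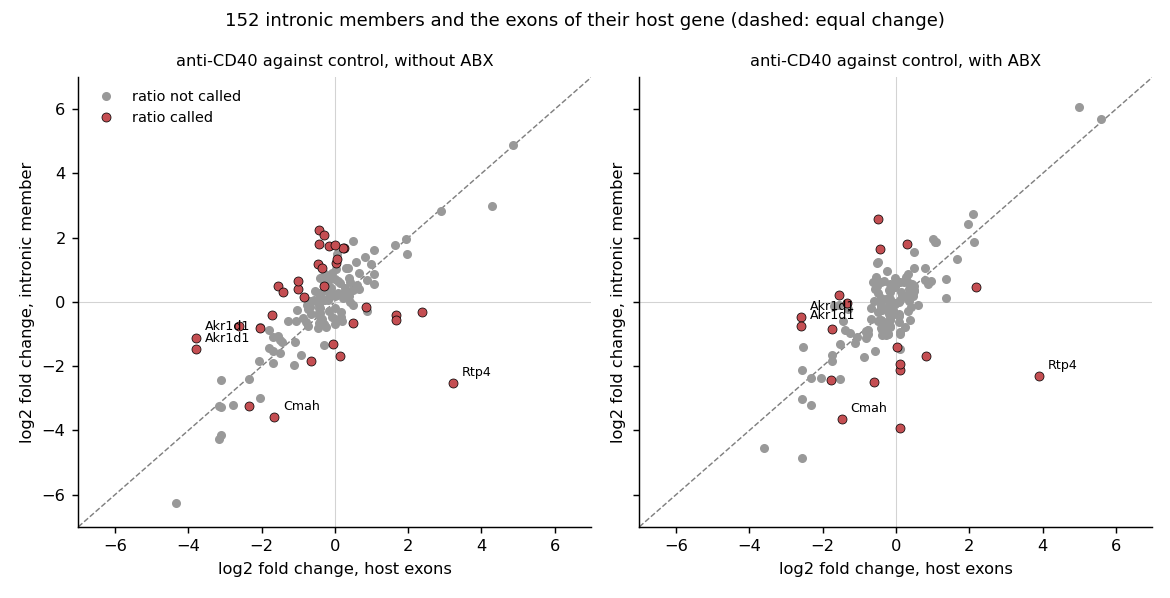
Log2 fold change of 152 intronic members against that of the exons of their host gene, for anti-CD40 against control without ABX (left) and with ABX (right), with the dashed line at equal change and red points where the ratio was called. Most points lie near the line, a member of Rtp4 lies far below it at a host change of 3.22 and an intron change of -2.52, and both members of Akr1d1 lie above it.

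Without ABX the ratio changed in 33 of 152 pairs (21.7%), 22 with more intron signal relative to the host and 11 with less. Of all 1326 pairs 18.4% were called, and of the exon features set against the other exons of their gene 211 of 1174. With ABX 18 pairs changed (11.8%, against 6.26% of all pairs and 65 of 1174 exon pairs), 8 up and 10 down. The fits with plate column called 6 and 3 pairs, and without mouse 17 the first count was 33 (18 up and 15 down). Whether intronic pairs differ from exon pairs was not tested.

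Rtp4, an interferon-induced chaperone of receptors, gave the largest change of ratio, at 1 of its intronic members. Its exons read 1.27 ± 0.48 CPM in control mice and 11.9 ± 1.9 CPM in anti-CD40 mice without ABX, and 0.930 ± 0.40 CPM and 14.04 ± 2.7 CPM with ABX. The 7 intervals of that member, 5386 bp from any exon, read 1.25, 2.86, 1.03, 1.65 and 2.32 CPM in control mice and 0.162, 0.377, 0.165, 0.459 and 0.312 CPM in anti-CD40 mice without ABX. The exons rose by 3.22 ± 0.24 and the member fell by 2.52 ± 0.50, and the log2 ratio moved by -5.55 ± 0.51 (limma, adjusted p = 4.24e-09). With ABX the exons rose by 3.89 ± 0.26, the member fell by 2.32 ± 0.44 and the ratio moved by -6.26 ± 0.51 (adjusted p = 7.34e-10). Both ratio calls held with plate column in the fit, at -6.52 and -6.497, and no mice overlapped in either direction. Of the other members in Rtp4 none was called by edgeR: an intronic one shared with Gm45338 (106 counts) was at 0.06 ± 0.54 without ABX (adjusted p = 0.943) and -0.25 ± 0.58 with ABX (adjusted p = 0.781), and a mixed one of 21 counts was at 0.85 and 1.44 (adjusted p = 0.519 and 0.333).

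In Cmah both sides fell, the intron more than the exons: the exons went from 175 ± 12 CPM to 55.8 ± 9.0 CPM without ABX (-1.65 ± 0.10), and the ratio moved by -1.94 ± 0.18 (adjusted p = 2.75e-07), and by -2.21 ± 0.18 (adjusted p = 1.16e-07) with ABX. In Akr1d1, the reductase of bile acid synthesis, the exons fell more than the intron. They read 214 ± 42 CPM in control mice and 15.4 ± 4.1 CPM in anti-CD40 mice without ABX (-3.80 ± 0.18), and 290 ± 21 CPM and 47.9 ± 9.8 CPM with ABX (-2.60 ± 0.17). The member that starts at 37545145 on chromosome 6, 54 bp from an exon, read 5.54, 8.41, 6.504, 4.95 and 5.30 CPM in control mice and 1.62, 2.38, 1.32, 3.98 and 4.84 CPM in anti-CD40 mice without ABX. Its ratio to the exons rose by 2.56 ± 0.29 (adjusted p = 1.2e-07) and, with ABX, by 1.87 ± 0.29 (adjusted p = 4.56e-05), and both calls held with plate column in the fit. The overlapping member that starts at 37543553 gave 1.95 ± 0.57 (adjusted p = 0.0149) and 2.16 ± 0.57 (adjusted p = 0.0203), calls lost without mouse 16 or 19 (1.72 and 1.67) and without mouse 13 or 4 (1.93 and 2.04) and with the column term (3.28, adjusted p = 0.121, and 2.81, adjusted p = 0.292).

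**Figure D5:**
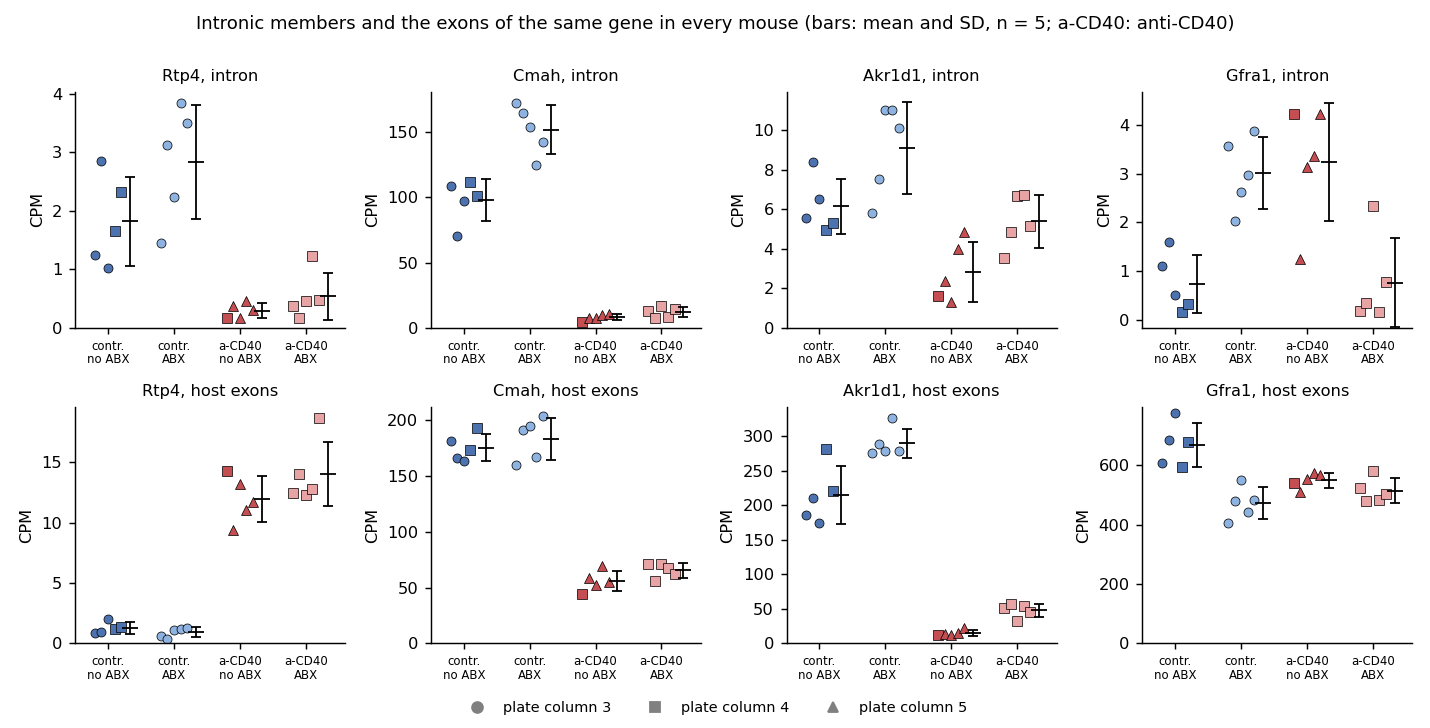
Level in CPM of an intronic member (upper row) and of the summed exon features of the same gene (lower row) in every mouse for Rtp4, Cmah, Akr1d1 and Gfra1, with group mean and SD (n = 5) as bars and plate column as the marker shape. In Rtp4 this intronic member is lower and the exons are higher in all anti-CD40 mice, and in Cmah both are lower. In Gfra1 the member that starts at 58357999 changes direction with ABX while the exons stay between 406.5 and 776.8 CPM.

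Pcx, the gene of pyruvate carboxylase, rose in its exons from 503 ± 113 CPM to 1590.4 ± 283 CPM without ABX (1.66 ± 0.13), while an intronic member stood at 2.39 ± 0.70 CPM and 1.601 ± 0.95 CPM, with overlap and no call (-0.56 ± 0.40), so that the ratio moved by -2.40 ± 0.50 (adjusted p = 0.00086). In Pqlc3 the exons rose by 2.37 ± 0.35 and the intron was not called (-0.33 ± 0.39), with a ratio change of -2.64 ± 0.48 (adjusted p = 0.000216). In Atrnl1 the intron rose from 0.336 ± 0.21 CPM to 1.68 ± 0.71 CPM (2.23 ± 0.52, adjusted p = 0.000551) while the exons fell by 0.42 ± 0.10, and the ratio rose by 2.63 ± 0.53 (adjusted p = 0.00064). The ratio calls of Pcx, Pqlc3 and Atrnl1 were lost with plate column in the fit (adjusted p = 0.201, 0.115 and 0.175), where the changes were -2.42, -2.90 and 2.66. In Dpyd, the first enzyme of pyrimidine breakdown, with 2409 counts in the intron, the exons fell by 2.04 ± 0.09 and the intron by 0.80 ± 0.16 without ABX (ratio 1.22 ± 0.16, adjusted p = 1.94e-06), and by 1.75 ± 0.09 and 0.85 ± 0.16 with ABX (ratio 0.90 ± 0.16, adjusted p = 0.000358). Dpyd lies outside the rule for named members and was chosen for its depth after its values were seen.

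With ABX the ratio rose in Atxn1, the ataxin-1 gene, by 2.73 ± 0.52 (adjusted p = 0.00083) and in Nubpl by 2.16 ± 0.57 (adjusted p = 0.0201, lost without mouse 1, 2, 14 or 15, at 1.63 to 2.07). It fell for 3 members of Gfra1, by 3.90 ± 0.63, 2.98 ± 0.55 and 2.58 ± 0.53 (adjusted p = 8.95e-05, 0.000609 and 0.00192), whose shared exons were at 472 ± 54 CPM and 514 ± 42 CPM (log2 fold change 0.12 ± 0.09, unadjusted p = 0.161). These 3 members share a host and overlap in part, so they are not independent. With plate column in the fit none of these 5 ratio calls was kept (adjusted p = 0.0914 to 0.885). The changes were then 2.72 in Atxn1 and 2.31 in Nubpl, and in Gfra1 -3.73 for the member that starts at 58278966, -1.92 for that at 58354357 and -0.94 for that at 58357999.

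For ABX against no ABX, 1 intron-host pair was called in control mice (0.658%, against 0.302% of all pairs), a member of Gfra1 whose ratio rose by 2.71 ± 0.53 (adjusted p = 0.0147, and 2.54 at adjusted p = 0.088 without mouse 10). In anti-CD40 mice 5 were called (3.29%, against 2.34%), all with less intron signal with ABX: 2 members of Gfra1 and those of Dapk1, Adk and Ptprd. The anti-CD40 change of the ratio differed between the ABX settings in 8 pairs (5.26%, against 3.09%), all lower with ABX. The count in anti-CD40 mice was 2 without mouse 14 and 3 without mouse 13, 16, 18 or 19. The count for the difference was 4 without mouse 13, 19, 4, 5, 6 or 9 and 5 without mouse 11, 14, 16 or 8. In Ptprd, a receptor phosphatase gene, the ratio rose by 2.15 ± 0.33 without ABX (adjusted p = 2.47e-05), and the difference between settings was -2.26 ± 0.47 (adjusted p = 0.00682). In Dapk1, a death-associated kinase gene, it was -3.20 ± 0.75 (adjusted p = 0.0195), and in Adk, the adenosine kinase gene, -2.23 ± 0.60 (adjusted p = 0.0404). With plate column in the fit 0 pairs were called in the ABX comparisons and 1 in the difference, the Gfra1 member that starts at 58357999 (-4.94, adjusted p = 0.0166, against -5.09 ± 0.75 without the term).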

How the data were processed

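RNA of 20 mouse livers was sequenced, 5 per group, and groups were taken from the labels. The values are counts per feature deposited by the authors. Per the submitters' processing notes reads were handled with Trimmomatic 0.38 and HISAT2 2.1.0 on mm10, and per the file headers paired reads were counted over exons with featureCounts 1.5.0-p2 with no strand option and a human annotation (GRCh38, Ensembl), whose coordinates are read here as mouse positions. Without strand, overlapping genes cannot be told apart. Libraries held 5053014 to 7618736 counts, so members with few counts carry wide errors, and intervals and floors cover counting error only.

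All 8751 features with 20 or more counts were tested together with edgeR 4.0.16 (TMM factors, quasi-likelihood test, 4 groups in 1 fit), with p adjusted by Benjamini-Hochberg over all of them and called under 0.05. Ratios of intron to host exons were tested with limma 3.58.1 on log2 counts plus a prior count of 0.5, over 1326 intronic and exon pairs. Overlaps used bedtools 2.31.1. Scripts were tested on simulated data. Alternatives were DESeq2 1.42.0, library totals, other filters and member rules, a plate column term and each mouse left out. Named were the 10 members with most counts, the called members with 100 or more counts and the largest changes (4 in each direction for anti-CD40, 2 for other comparisons), 3 called pairs in each direction, and members of 100 or more counts in or within 5 kb of listed genes. A single gene of these lists is not reported here. Members and lists were chosen with earlier results of these data known.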

Additional observations from a re-analysis of the deposited data

Results flagged for a closer look

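In groups of 5 mice, a highest or lowest value was marked where its gap to the next was a large part of the group's range, a rule that by chance marks about 1 group in 20. Mouse 1 (control with ABX) was marked for 4 members: Hsd3b5 at 12.6 CPM, Cyp2c68 at 14.1 CPM, Ugt2b5 at 5.17 CPM and Cyp3a25 at 3.23 CPM, where the other 4 mice read 27.1 to 29.6 CPM. Mouse 5 of the same group read 1710 CPM upstream of Gstp3 and 1.47 CPM in Atrnl1. Among control mice without ABX, mouse 8 read 1.37 CPM at Gm14319 and 4.96 CPM in the Akr1d1 member that starts at 37543553, and mouse 10 read 4.14 CPM at Cyp2c68.

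Among anti-CD40 mice without ABX, mouse 16 read 0.162 CPM at Kcnb2 and 0.487 CPM at Cyp2c54, where the other 4 were at 0. These were 1 and 3 counts. Where the other 4 mice are at 0, any count is marked, so the chance rate given above does not hold there. Mouse 19 read 1.68 CPM in Atxn1 and 2.14 CPM in Dapk1. Among anti-CD40 mice with ABX, mouse 15 read 362 CPM in D130009I18Rik and 0.157 CPM at Hsd3b5, mouse 12 read 0.173 CPM at Kcnb2, mouse 11 read 0.371 CPM in Atxn1 and mouse 14 read 1.22 CPM in Rtp4. Mouse 13 read 2.33 CPM and 2.02 CPM in the overlapping Gfra1 members that start at 58357999 and 58354357.

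The anti-CD40 effect differed between the ABX settings, by the interaction term of the fit, for both of these Gfra1 members (-4.00 and -2.70 on the log2 scale), for Gm23315 (-2.79), Lima1 (2.92), Rdh7 (1.68) and Cd247 with Creg1 (1.99). None of these 6 differences was called with plate column as a term. With it they were -3.87 and -2.32 for the Gfra1 members that start at 58357999 and 58354357, 0.03 for Gm23315, 2.95 for Lima1, 2.39 for Rdh7 and 1.17 for Cd247 with Creg1.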

How the results depend on the processing

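No paired analysis was possible because mouse numbers are not shared between groups. In the order anti-CD40 without ABX, with ABX, ABX in control mice, ABX in anti-CD40 mice and the difference, plate column as a term gave 169, 150, 11, 2 and 0 members and 6, 3, 0, 0 and 1 pairs. Shares over all features with this term are not given. The term turned the direction of the Gfra1 member at 58357999 with ABX (0.17) and of Gm23315 (-0.27 without ABX, 1.03 for ABX in anti-CD40 mice, 0.034 for the difference); the cause was not tested. Leaving out 1 mouse gave 495 to 526, 413 to 446, 12 to 31, 35 to 63 and 12 to 25 members, and 24 to 34, 12 to 16, 0 to 1, 2 to 7 and 4 to 9 pairs.

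For anti-CD40, fewer members were tested with filterByExpr (261 and 254 called) and at 100 or more counts (278 and 275). For ABX in control mice DESeq2 called 44 and no filter 48. For the difference no filter gave 31 and a distance of 300 bp from exons 12. A minimum of 20 counts gave 52 pairs without ABX and 5 for the difference, a distance of 300 bp gave 10 pairs with ABX, and a prior count of 2 gave 2 and 9 pairs for ABX in control and anti-CD40 mice.

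Shares are given for control without ABX, control with ABX, anti-CD40 without ABX and anti-CD40 with ABX. Intronic shares were 0.234%, 0.222%, 0.247% and 0.227% of totals without mitochondrial features, 0.134%, 0.122%, 0.140% and 0.135% at 100 or more counts, 0.123%, 0.112%, 0.141% and 0.131% at 300 bp or more from exons, and 0.267%, 0.250%, 0.310% and 0.288% with any overlap of a gene body. Without the 5 members with the most counts the intronic share of control mice with ABX was 0.138%. Intergenic shares were 0.265%, 0.275%, 0.305% and 0.249% without mitochondrial features, 0.0666%, 0.0792%, 0.107% and 0.110% without the first 5 members, and, chosen after seeing the data, 0.0954%, 0.108%, 0.146% and 0.142% without the member beside Gstp3. At 300 bp or more they were 0.255% and 0.194% in anti-CD40 mice without and with ABX. Depth limits most members, whose median is 53 counts over 20 libraries.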
